A study of Mus musculus with 9 samples.

Results

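The interferon response genes are transcripts that cells raise after interferon binds its receptor, and their level was measured here in mouse aorta with and without the clock gene Bmal1. A list of 37 such genes was matched to the array through the platform annotation, using probe sets paired with exactly 1 gene of the list. This gave 35 measured genes with 58 probe sets, of 18193 genes measured in all. Ifi44 and Isg15 were not measured by a probe set of their own. Where a gene had several probe sets (15 genes), the one with the highest mean over all arrays stands for it. The other probe sets above the median brightness that gave another sign are given beside the gene or at the end.

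The aortae came from male mice of 2 groups, BMAL-/- (4 arrays, F02, F03, F05 and F08) and BMAL+/+ (5 arrays, F01, F04, F07, F09 and F10). Both groups were only partially backcrossed onto C57Bl/6J, and no other allele or agent is named. All mice lived in a cycle of 12 h light and 12 h dark for 2 weeks, then in darkness for at least 30 h, and aortae were taken at ZT14 and hybridised to Affymetrix MOE 430 V2 arrays. The labels give no age, and the design text calls the arrays biological replicates without saying whether an array holds 1 aorta or a pool.

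Type I interferons act through the receptor chains Ifnar1 and Ifnar2, and type II interferon acts through Ifngr1 and Ifngr2. Janus kinases bound to these receptors phosphorylate STAT proteins, and a complex that holds Stat2 and Irf9 binds the interferon-stimulated response element (ISRE) in front of its target genes. The targets include sensors of viral nucleic acid, proteins that block viral translation or assembly, guanylate-binding GTPases, and parts of the machinery that prepares peptides for MHC class I. In an uninfected artery these genes run at a basal level.

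The ISRE is visible in the promoters of many of these genes, and 5 promoters of genes described below are shown: 4 that hold it and Oasl2, which does not. Ifit2, Psmb8, Psmb9 and Tap1, also described below, have promoters without it that are not shown. The sequences are from RefSeq (GRCm38.p6) and run 5′ to 3′ on the strand of the gene, from 250 bases before to 50 bases after its start. Capitals mark matches to the core GAAANNGAAA or its reverse complement TTTCNNTTTC.
Ifit3 promoter, chr19:34583279-34583578, plus strand: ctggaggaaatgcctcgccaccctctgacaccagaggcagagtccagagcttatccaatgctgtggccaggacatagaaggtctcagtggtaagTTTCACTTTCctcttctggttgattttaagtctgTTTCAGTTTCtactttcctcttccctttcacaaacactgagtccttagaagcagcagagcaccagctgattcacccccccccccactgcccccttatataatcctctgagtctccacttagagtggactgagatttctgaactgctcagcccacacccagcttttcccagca
Gbp2 promoter, chr3:142620413-142620712, plus strand: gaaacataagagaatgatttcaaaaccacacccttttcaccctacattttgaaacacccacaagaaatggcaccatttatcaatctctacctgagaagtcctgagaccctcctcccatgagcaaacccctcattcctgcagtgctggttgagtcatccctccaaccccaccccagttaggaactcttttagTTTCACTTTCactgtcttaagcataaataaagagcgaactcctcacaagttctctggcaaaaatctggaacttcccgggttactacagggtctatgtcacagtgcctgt
Gbp3 promoter, chr3:142559794-142560093, plus strand: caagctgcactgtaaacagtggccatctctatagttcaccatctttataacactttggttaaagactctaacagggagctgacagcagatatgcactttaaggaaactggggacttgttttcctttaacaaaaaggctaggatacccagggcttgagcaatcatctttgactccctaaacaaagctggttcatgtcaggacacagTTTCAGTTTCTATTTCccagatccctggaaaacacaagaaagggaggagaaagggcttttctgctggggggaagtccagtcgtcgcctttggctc
Irgm1 promoter, chr11:48871371-48871670, minus strand: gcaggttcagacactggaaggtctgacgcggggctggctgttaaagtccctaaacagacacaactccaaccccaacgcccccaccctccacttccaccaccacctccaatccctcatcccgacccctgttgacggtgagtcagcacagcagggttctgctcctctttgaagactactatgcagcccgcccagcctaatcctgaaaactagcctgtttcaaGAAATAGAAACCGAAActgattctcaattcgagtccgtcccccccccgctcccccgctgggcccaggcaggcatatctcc
Oasl2 promoter, chr5:114896684-114896983, plus strand: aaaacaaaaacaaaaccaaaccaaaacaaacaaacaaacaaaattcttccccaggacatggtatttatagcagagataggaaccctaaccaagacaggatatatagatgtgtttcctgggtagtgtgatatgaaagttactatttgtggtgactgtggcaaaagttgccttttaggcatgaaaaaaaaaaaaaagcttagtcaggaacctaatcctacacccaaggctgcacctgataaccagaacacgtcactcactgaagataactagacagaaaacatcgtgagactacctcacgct

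Ifit3 has separate matches that begin at −156 and −122 from the gene start, and Gbp2 has a single match at −59. In Gbp3 the matches at −45 and −39 overlap, as do those at −30 and −24 in Irgm1. The table held promoters for 28 of the 37 listed genes (31 promoters, since some genes have several). Counting both strands, the ISRE core was present in 14 of these 31 promoters (45.2%), against 1131 of the 32851 mouse promoters in the table (3.44%). The 14 genes are Bst2, Ddx58, Eif2ak2, Gbp2, Gbp3, Ifih1, Ifit1, Ifit3, Irgm1, Isg15, Oas1a, Oas3, Rsad2 and Stat2. The GAS core TTCNNNGAA, which binds STAT dimers downstream of type II interferon, was present in 6 promoters (19.4%, against 8.30% of all): Bst2, Eif2ak2, Ifi35, Ifit2, Oas1a and Psmb8. The E-box CACGTG, the element bound by the Bmal1 protein with its partner, was present in 1 promoter, that of Trim25 (3.23%, against 7.15% of all). A match is a description of these letters and does not show a bound site. Mx1, Mx2, Oas2, Usp18, Dhx58, Parp9, Parp14, Rtp4 and Zbp1 were not in the promoter table.

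**Figure D1:**
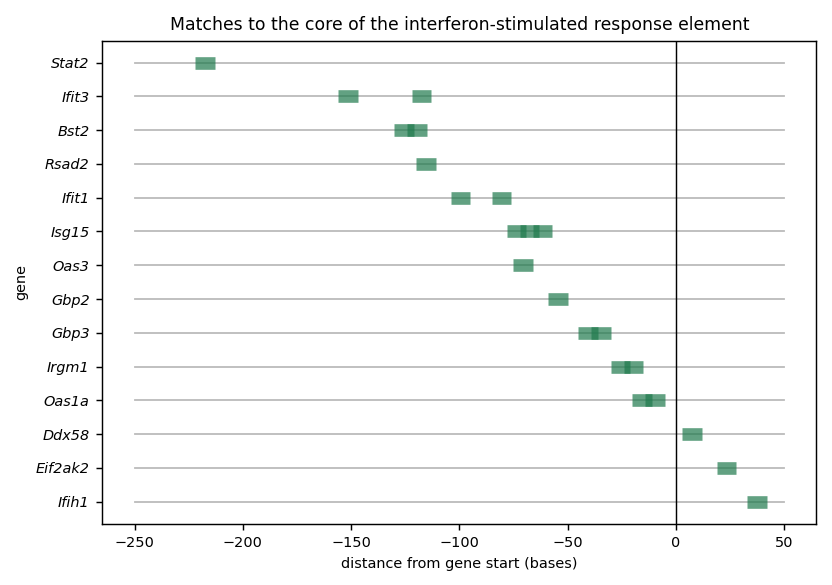
Position of each match to the ISRE core (green bars, either strand) in the 14 promoters that hold it. The horizontal axis is the distance from the gene start in bases, with the start at 0, and each grey line is 1 promoter from 250 bases before to 50 bases after the start. The Ifit3 matches begin at −156 and −122, and those of Gbp3 and Irgm1 lie within 50 bases of the start.

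The clock genes show that 2 arrays stand with the other label. Arntl, which encodes Bmal1, was at 5.87, 6.22, 2.77 and 6.05 log2 units in BMAL-/- aortae F02, F03, F05 and F08, against 2.76, 6.67, 2.79, 2.82 and 2.74 in BMAL+/+ aortae F01, F04, F07, F09 and F10. Nr1d2, a direct target of Bmal1, was at 5.08, 5.89, 11.21 and 5.48 in the BMAL-/- arrays and at 11.69, 5.81, 11.27, 10.39 and 11.09 in the BMAL+/+ arrays. F05 therefore has the levels of the BMAL+/+ arrays and F04 those of the BMAL-/- arrays, also for Npas2, a gene repressed by the Nr1d proteins (F05 3.40, F04 8.36). The sources used here do not say whether the Arntl probes lie inside the deleted stretch, so Arntl alone does not check the labels. Every result is therefore given for all 9 arrays as labelled and for the 7 arrays without F04 and F05 (3 BMAL-/-, 4 BMAL+/+). F01 has a source name of BMAL-/- but a title and strain of BMAL+/+, and was used as BMAL+/+.

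Array medians over all probe sets lay between 3.13 and 3.24 log2 units. The aorta markers were present: all 8 smooth muscle markers and all 8 fibroblast markers were above the array median on every array, as were 7 of 8 endothelial markers. The difference between 3′ and 5′ control probe sets of Gapdh, a sign of RNA quality, was 3.31, 2.88, 0.70 and 0.05 in the BMAL-/- arrays F02, F03, F05 and F08, against 1.26, 3.01, 0.12, −0.05 and −0.13 in the BMAL+/+ arrays F01, F04, F07, F09 and F10. The summed lymphocyte markers stood at 11.07, 7.09, 7.59 and 7.26 in the BMAL-/- arrays, against 7.28, 7.68, 8.09, 7.68 and 11.53 in the BMAL+/+ arrays. The arrays F02, F03 and F04 thus had the largest 3′ over 5′ differences, and F02 and F10 the highest lymphocyte markers.

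Of the 35 measured interferon response genes, 28 lay above the median brightness of all probe sets (3.19 log2 units) and 22 were above the array median on all 9 arrays. The other 7 were at or below it: Ifit1, Irf7, Mx2, Oas3, Oasl1, Usp18 and Dhx58. Differences among these 7 are between values near the floor of the array and are given apart from the rest.

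No interferon response gene passed the genotype test at an adjusted p under 0.05. In the limma test over 45037 probe sets this call was made for 0% of probe sets in 9 arrays and for 0.00888% (4 probe sets) in 7 arrays. Adjusted p for the members ran between 0.37 and 0.938 in 9 arrays and between 0.208 and 0.974 in 7 arrays. At an unadjusted limma p under 0.05, 3903 probe sets passed in 9 arrays and 10680 in 7 arrays. The median difference, BMAL-/- minus BMAL+/+, of the 28 brighter members was −0.12 in 9 arrays and −0.20 in 7 arrays, where the 11180 genes of the same brightness had medians of 0.01 and 0.03. In both sets of arrays 18 of the 28 were below 0 and 10 above. Of the 11180 genes, 5311 were below 0 in 9 arrays and 5118 in 7 arrays. Over all 35 members the median was −0.06 in both sets, against 0.03 and 0.04 over all genes, and it turned to 0.04 and 0.03 without F08 and to 0.02 and 0.04 without F10. In whole aorta, fewer cells of a type and less RNA per cell cannot be told apart.

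At an unadjusted limma p under 0.05, 2 members were lower in BMAL-/- in 9 arrays, Parp9 and Oasl2 (background 0.731% of all genes and 1.16% of genes above the median brightness), and none was higher (background 6.52% and 1.17%). In 7 arrays 5 of the 28 brighter members were lower, namely Ifit3, Gbp2, Gbp3, Parp9 and Oasl2 (background 6.65%, and 4.13% of all genes), and none was higher (background 8.06%). Near the floor, Dhx58 was higher in 7 arrays at this threshold (background 18.2% of all genes). The counts rest on few arrays. With Dhx58 the count in 7 arrays was 6, and it became 1 without F03, 3 without F07, and 10 without F08 (3 lower, 7 higher). In 9 arrays the count of 2 became 0 without F03 or F09, 1 without F07, 4 without F08, 5 without F02 and 7 without F04. The share of all genes at this threshold is not given for these settings, so these counts are not results on the members. Without F08 in 7 arrays, 16445 of the 45037 probe sets passed even the adjusted test.

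**Figure D2:**
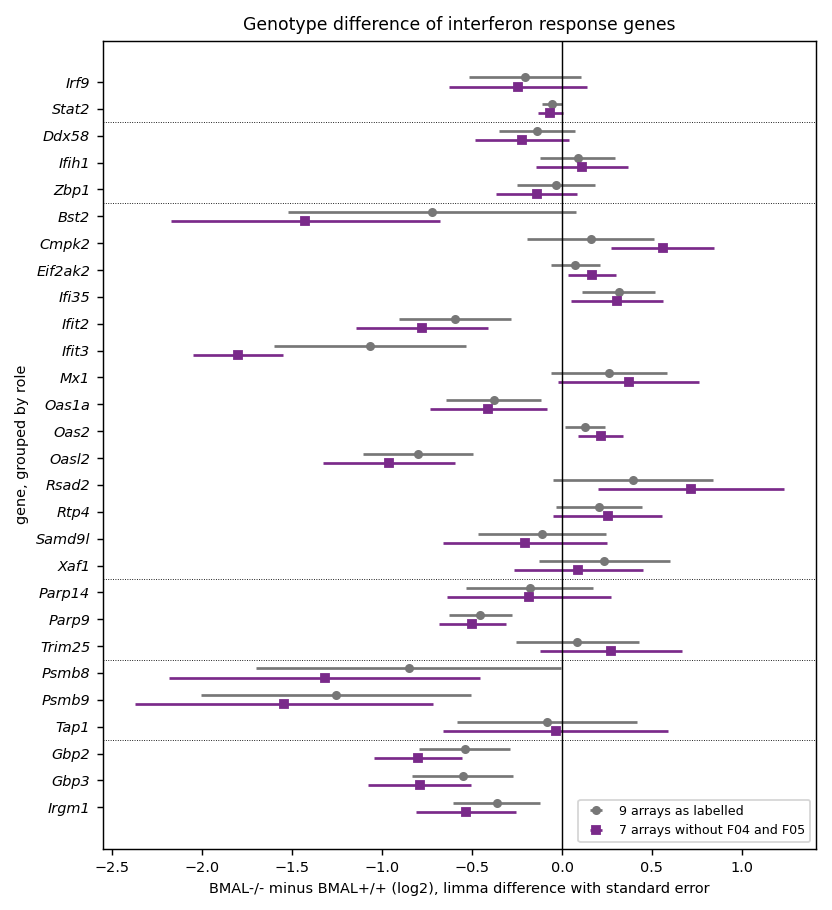
Difference BMAL-/- minus BMAL+/+ in log2 units (horizontal axis) with its limma standard error for the 28 members above the median brightness (vertical axis, grouped by role). Grey circles are the 9 arrays as labelled and purple squares the 7 arrays without F04 and F05. Ifit3 lies at −1.07 and −1.80, and the 3 GTPases Gbp2, Gbp3 and Irgm1 lie below 0 in both.

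Among the transcription factors of the response, none passed the test. Stat2 and Irf9 join the complex that binds the ISRE, and Irf7 amplifies type I interferon production. Stat2 was at 3.58, 3.57, 3.55 and 3.56 in BMAL-/- aortae, against 3.56, 3.57, 3.67, 3.75 and 3.56 in BMAL+/+ aortae (arrays in the order given above, here and below). This probe set stayed within 0.201 log2 units over the 9 arrays. The dimmer Stat2 probe set, whose mean lies near the floor, was at 2.79, 2.64, 2.90 and 3.14 in BMAL-/- aortae, against 2.91, 2.76, 3.33, 4.02 and 3.79 in BMAL+/+ aortae. F09, F10 and F07 were its highest arrays, the groups overlap, and its difference was −0.49 ± 0.26 in 9 arrays and −0.65 ± 0.28 in 7 arrays (limma, adjusted p = 0.37 and 0.208). Irf9 was at 7.23, 5.94, 6.23 and 6.10 in BMAL-/- aortae, against 6.15, 6.24, 7.05, 6.46 and 7.01 in BMAL+/+ aortae. The groups overlap, and the highest and the lowest array are both BMAL-/-. The differences of Irf9 were −0.20 ± 0.31 (SE) in 9 arrays and −0.24 ± 0.38 in 7 arrays. Irf7 lay near the floor, at 2.81, 2.52, 2.50 and 2.51 in BMAL-/- aortae and 2.49, 2.51, 2.67, 2.49 and 2.52 in BMAL+/+ aortae, with F02 and F07 above the others.

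The brighter sensors of viral RNA and DNA had differences smaller than their standard errors. Ifih1 (MDA5) and Ddx58 (RIG-I) detect viral RNA in the cytosol, and Zbp1 detects nucleic acid in the Z form. Their differences were 0.09, −0.14 and −0.03 in 9 arrays and 0.11, −0.23 and −0.14 in 7 arrays. Dhx58 (LGP2), a regulator of these sensors, was at 2.58, 2.64, 2.56 and 2.54 in BMAL-/- aortae and 2.48, 2.60, 2.50, 2.54 and 2.54 in BMAL+/+ aortae. In 7 arrays its groups did not overlap, by a difference of 0.07 ± 0.03 that lies near the floor (background 14.4% of all genes higher without overlap).

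Ifit3 was the antiviral effector whose genotypes did not overlap in 7 arrays. In human cells its product binds that of Ifit1 and helps it keep viral RNA from translation. Ifit3 was at 5.93, 5.77, 6.93 and 5.40 in BMAL-/- aortae, against 6.99, 5.36, 7.85, 7.48 and 7.70 in BMAL+/+ aortae. The highest BMAL-/- array is F05 and the lowest BMAL+/+ array is F04, the arrays whose clock genes stand with the other label. As labelled, the groups overlap, with means of 6.01 ± 0.65 in BMAL-/- (SD, n = 4) and 7.08 ± 1.01 in BMAL+/+ (SD, n = 5). The difference was −1.07 ± 0.53 (limma SE, adjusted p = 0.37), and an exact two-sided permutation test over the 126 splits of the arrays gave p = 0.119. Without F04 and F05 the groups did not overlap, with means of 5.70 ± 0.27 in BMAL-/- (SD, n = 3) and 7.50 ± 0.38 in BMAL+/+ (SD, n = 4). The difference was −1.80 ± 0.25 (limma SE, adjusted p = 0.208). F05 at 6.93 and the BMAL+/+ array F01 at 6.99 differ by less than either group's spread. The probe set is 1449025_at, and the gene lies on chromosome 19.

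The Ifit3 difference was measured beside uneven RNA quality. F02, F03 and F04, with the largest 3′ over 5′ differences, had Ifit3 at 5.93, 5.77 and 5.36, below every other array but F08. With F04 left out, arrays of this kind are in BMAL-/- only. F08, with the smallest 3′ over 5′ difference of the BMAL-/- arrays, had the lowest Ifit3 level of any array but F04. The part of RNA quality in the Ifit3 difference was not tested. Without F02, F03 and F04 the difference was −1.34 in 9 arrays, and −2.10 ± 0.38 in 7 arrays, where F08 alone stands against 4 BMAL+/+ arrays and is assumed to vary like them. Without F02 and F10, which were high in lymphocyte markers, it was −0.88 and −1.85 ± 0.32. Adjusted p (limma) in 7 arrays was under 0.05 when F08 was left out (0.00999, difference −1.65), a setting in which 16445 probe sets passed and F02 and F03 alone represent BMAL-/-.

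Ifit2 and Ifit1, of the same family, had overlapping groups in both sets of arrays. Ifit2, which limits viral translation, was at 6.64, 5.12, 6.43 and 5.63 in BMAL-/- aortae, against 6.96, 6.45, 6.60, 6.43 and 6.30 in BMAL+/+ aortae. F03 and F08 were lowest, while F02 and F05 lay among the BMAL+/+ arrays. The difference was −0.59 ± 0.31 in 9 arrays and −0.78 ± 0.37 in 7 arrays (limma, adjusted p = 0.37 and 0.217). Without F03 it was −0.32 and −0.44, without F02 it was −1.20 in 7 arrays, and with F01 counted as BMAL-/- it was −0.29 and −0.36. Ifit1, near the floor and shown as the partner of Ifit3 after its values were seen, was at 2.55, 2.54, 2.54 and 2.29 in BMAL-/- aortae and 2.70, 2.16, 4.11, 3.17 and 2.54 in BMAL+/+ aortae, and F07 and F09 were its highest arrays.

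The OAS family holds enzymes whose product activates RNase L, and proteins that resemble them. Oasl2, an OAS-like protein with a ubiquitin-like tail, was at 3.02, 3.26, 3.56 and 3.77 in BMAL-/- aortae, against 3.75, 3.77, 4.94, 4.78 and 3.77 in BMAL+/+ aortae. F07 and F09 were high, and F08, F04 and F10 held exactly the same deposited value, 3.77. F08 lay above F01, so the groups overlap in both sets of arrays. The difference was −0.80 ± 0.31 in 9 arrays and −0.96 ± 0.37 in 7 arrays (limma, adjusted p = 0.37 and 0.208). Oas1a differed by −0.38 and −0.41, and Oas2 by 0.13 and 0.21. Oas3 lay at the floor, with 2.25, 2.23, 2.23 and 2.21 in BMAL-/- aortae and 2.20, 2.22, 2.21, 2.20 and 2.22 in BMAL+/+ aortae, and its difference of 0.02 turned below 0 when arrays were set to the same median or quantile-normalised. Oasl1, also near the floor, differed by 0.04 and 0.07, and in 9 arrays it turned sign in the same settings.

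The other antiviral effectors pointed both ways, and none passed the test. Ifi35, which forms complexes with the interferon-induced protein Nmi, was at 10.96, 10.54, 10.74 and 10.43 in BMAL-/- aortae, against 10.65, 10.42, 10.55, 9.75 and 10.40 in BMAL+/+ aortae. F02 was highest and F09 lowest, and the difference was 0.31 ± 0.20 in 9 arrays and 0.31 ± 0.26 in 7 arrays. Another Ifi35 probe set gave −0.31 ± 0.70 in 9 arrays and −1.0 ± 0.62 in 7 arrays, so the direction is not settled. Rsad2 (viperin), which makes a chain-terminating nucleotide, differed by 0.39 and 0.72, and Cmpk2, its genomic neighbour and a mitochondrial nucleotide kinase, by 0.16 and 0.56. Differences in 9 and 7 arrays were 0.26 and 0.37 for Mx1, 0.07 and 0.17 for Eif2ak2 (PKR, the kinase that halts translation on double-stranded RNA), 0.20 and 0.25 for Rtp4, and 0.24 and 0.09 for Xaf1, which promotes cell death. Mx1 was above the array median on 3 of 9 arrays, and without F02 and F10 its difference was −0.04 in both sets. Mx2, which like Mx1 encodes a dynamin-like GTPase, lay near the floor at 0.02 and 0.03, with a sign that turned under both scalings too. Samd9l differed by −0.11 and −0.21. Over the 14 brighter effectors, 6 were below 0 and 8 above, with medians of 0.10 and 0.13.

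Bst2 (tetherin), which holds budding virus at the cell surface, was chosen for its array values after they were seen. It was at 4.23, 2.12, 4.23 and 4.23 in BMAL-/- aortae, against 3.47, 2.31, 4.89, 5.54 and 5.90 in BMAL+/+ aortae. F03 and F04 were lowest, F07, F09 and F10 were highest, and the groups overlap through F01 and F04. F02, F05 and F08 held exactly the same deposited value. The difference was −0.72 ± 0.80 in 9 arrays and −1.43 ± 0.75 in 7 arrays.

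**Figure D3:**
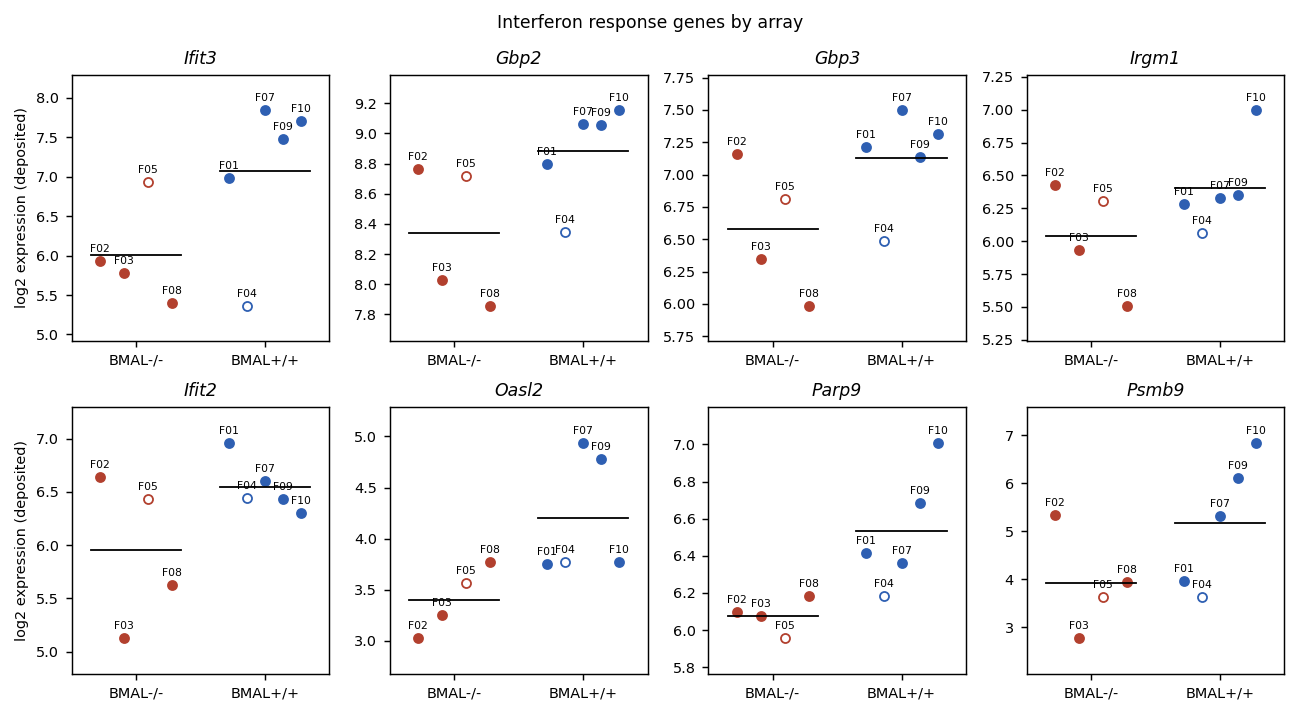
Deposited log2 expression (vertical axis) of Ifit3, Gbp2, Gbp3, Irgm1, Ifit2, Oasl2, Parp9 and Psmb9 on each array, BMAL-/- on the left and BMAL+/+ on the right of each panel. Points are arrays, open points are F04 and F05, and black lines are group means over all arrays of the label. In the Ifit3 panel the open points are the highest of the BMAL-/- arrays (6.93) and the lowest of the BMAL+/+ arrays (5.36).

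The interferon-inducible GTPases were lower in BMAL-/- in value for all 3 members, without passing the adjusted test. These proteins gather on the vacuoles of intracellular pathogens. Gbp2 (probe set 1435906_x_at, chromosome 3) was at 8.76, 8.03, 8.72 and 7.86 in BMAL-/- aortae, against 8.80, 8.35, 9.06, 9.05 and 9.16 in BMAL+/+ aortae. In 7 arrays every BMAL-/- array lay below every BMAL+/+ array, though F02 and F01 nearly touch. The difference was −0.54 ± 0.25 in 9 arrays and −0.80 ± 0.24 in 7 arrays (limma, adjusted p = 0.37 and 0.208). A second Gbp2 probe set, 1418240_at, was at 6.70, 5.78, 6.94 and 6.02 in BMAL-/- aortae, against 6.99, 6.23, 7.27, 8.19 and 7.71 in BMAL+/+ aortae. F03 and F08 were again the low BMAL-/- arrays, and in 7 arrays the groups did not overlap here either. The difference was −0.92 ± 0.41 and −1.37 ± 0.35.

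Gbp3, on the same chromosome, had the same order of BMAL-/- arrays as the brighter Gbp2 probe set. It was at 7.16, 6.35, 6.81 and 5.99 in BMAL-/- aortae, against 7.21, 6.49, 7.50, 7.13 and 7.31 in BMAL+/+ aortae. F08 was lowest and F02 lay among the BMAL+/+ arrays, so the groups overlap. The difference was −0.55 ± 0.28 in 9 arrays and −0.79 ± 0.29 in 7 arrays (limma, adjusted p = 0.37 and 0.208). Irgm1, which directs autophagy to such vacuoles and whose array values are given after they were seen, was at 6.43, 5.93, 6.30 and 5.51 in BMAL-/- aortae, against 6.29, 6.06, 6.33, 6.35 and 7.00 in BMAL+/+ aortae. Again F08 was lowest, and the difference was −0.36 ± 0.24 and −0.54 ± 0.28 (limma, adjusted p = 0.411 and 0.24). Without F02 and F10 the differences in 7 arrays were −1.03 for Gbp2, −1.12 for Gbp3 and −0.60 for Irgm1. Without F02, F03 and F04, with F08 alone in BMAL-/-, they were −1.16, −1.30 and −0.98.

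The members that modify other proteins gave 1 gene with separated groups. Parp9, which pairs with the ligase Dtx3l in ADP-ribosylation and ubiquitin transfer, was at 6.10, 6.08, 5.95 and 6.18 in BMAL-/- aortae, against 6.42, 6.18, 6.36, 6.69 and 7.01 in BMAL+/+ aortae. All BMAL-/- arrays lay below all BMAL+/+ arrays, with F08 and F04 equal to the second decimal. F05, the lowest array, and F04, the lowest BMAL+/+ array, are those whose clock genes stand with the other label. The means were 6.08 ± 0.09 in BMAL-/- (SD, n = 4) and 6.53 ± 0.32 in BMAL+/+ (SD, n = 5). The difference was −0.45 ± 0.17 in 9 arrays (limma, adjusted p = 0.37) and −0.50 ± 0.19 in 7 arrays (limma, adjusted p = 0.208). It was the only member without overlap in 9 arrays (background 0.259% of genes above the median brightness, lower). In 7 arrays Ifit3, Gbp2 and Parp9 were without overlap in this direction (background 5.06%), and none of the 28 was without overlap in the other (background 8.18%).

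Parp14, a further ADP-ribosyl transferase, differed by −0.18 in 9 arrays and −0.18 in 7 arrays. Trim25, the ubiquitin ligase that activates RIG-I, was at 8.24, 8.03, 7.50 and 6.63 in BMAL-/- aortae, against 7.51, 8.13, 7.41, 7.08 and 7.45 in BMAL+/+ aortae. The BMAL-/- arrays hold both its highest and its lowest value, and the difference was 0.08 ± 0.34 and 0.27 ± 0.39. Usp18, which removes Isg15 from proteins, lay near the floor and differed by 0.07 and 0.11.

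Antigen processing had the lowest median difference of the roles (−0.85 in 9 arrays and −1.32 in 7 arrays), and Psmb8 and Psmb9 had the widest ranges over arrays of the 35 members. This median over 3 genes is the value of the brighter Psmb8 probe set, and the other Psmb8 probe set had the opposite sign. Psmb8 and Psmb9 are catalytic subunits of the immunoproteasome, and Tap1 carries peptides into the endoplasmic reticulum. Their array values were chosen for print after they were seen. Psmb8 was at 7.12, 4.39, 5.60 and 5.84 in BMAL-/- aortae, against 5.44, 4.54, 7.04, 7.43 and 8.50 in BMAL+/+ aortae. Psmb9 was at 5.33, 2.77, 3.62 and 3.94 in BMAL-/- aortae, against 3.96, 3.63, 5.32, 6.11 and 6.84 in BMAL+/+ aortae. Both genes were high in F10, F09, F07 and F02 and lowest in F03, and their groups overlap. The differences were −0.85 ± 0.85 and −1.32 ± 0.87 for Psmb8, and −1.26 ± 0.75 and −1.55 ± 0.83 for Psmb9. The other Psmb8 probe set gave 0.15 and 0.12. Tap1 was at 6.64, 5.06, 4.92 and 4.60 in BMAL-/- aortae, against 5.05, 5.06, 5.05, 5.04 and 6.73 in BMAL+/+ aortae. F02 and F10 stand 1 array in each genotype above the rest, and the difference was −0.08 ± 0.50 and −0.03 ± 0.63, with a sign in 7 arrays that turned under quantile normalisation.

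**Figure D4:**
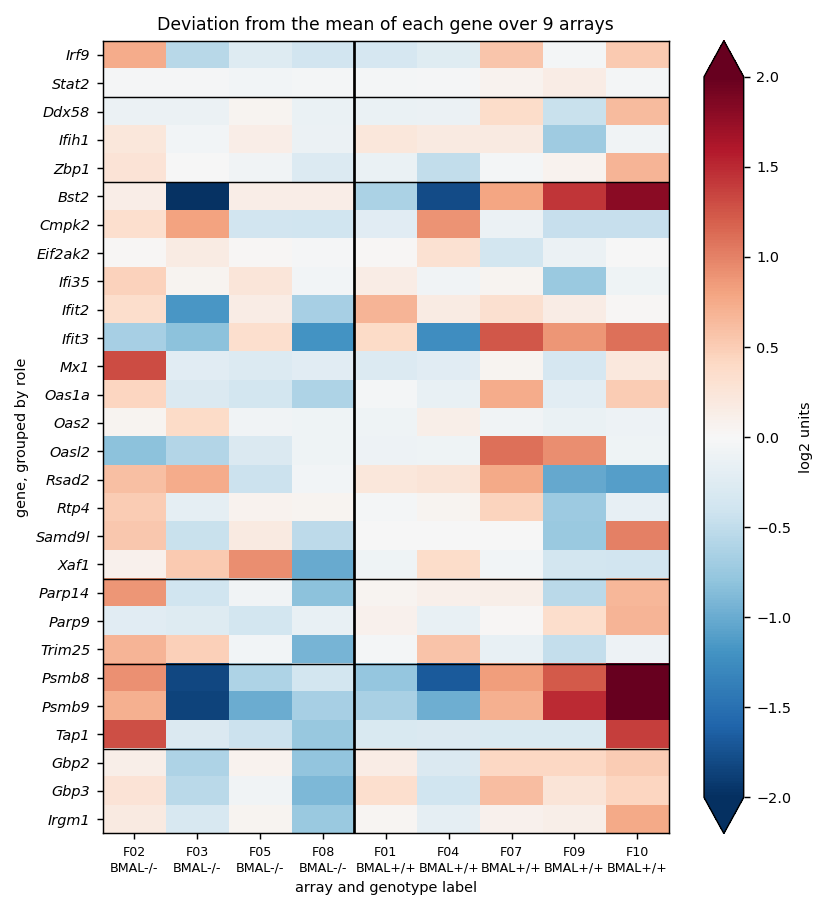
Deviation of each array (columns, BMAL-/- left of the black line and BMAL+/+ right) from the mean of the gene over 9 arrays, in log2 units on the colour scale, for the 28 members above the median brightness (rows, grouped by role). Red is above and blue below the mean. F08 holds the lowest value of 8 members (background 8.26% of genes above the median brightness), F09 of 7 (25.5%) and F03 of 5 (11.8%). F10 holds the highest value of 10 (background 7.90%), F02 of 6 (17.3%) and F07 of 5 (5.36%).

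Across the members, single arrays of a genotype lay apart from each other. The median level of the 28 brighter members was 6.64, 5.85, 6.09 and 5.74 in BMAL-/- aortae, against 6.22, 6.12, 6.48, 6.24 and 6.79 in BMAL+/+ aortae. F02 lies above all BMAL+/+ arrays but F10, and F03, F05 and F08 lie below all of them. F08 lay below all of F01, F07, F09 and F10 for 15 of the 28 members (background 16.8% of genes above the median brightness) and above all of them for 0 (background 17%). F03 lay below the same 4 arrays for 12 members (background 24.2%) and above them for 5 (background 31.9%). F02 lay below for 4 (background 24.1%) and above for 9 (background 33.5%). F05 lay below for 9 (background 13.9%) and above for 3 (background 21.6%), although its clock genes stand with these 4 arrays. F04 lay below for 9 (background 20.1%) and above for 5 (background 34.1%).

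F02 and F10, 1 array of each genotype, were the pair of highest arrays for 7 of the 35 members: Mx1, Usp18, Tap1, Parp14, Irgm1, Samd9l and Zbp1. Of the 28 brighter members 6 showed this (background 5.94%). The same pair was highest for 9 of 11 lymphocyte markers and for 2 of 12 macrophage markers. Mx1, for example, was at 4.61 in F02 and 3.52 in F10, with the other arrays between 2.98 and 3.36. Of the 11 lymphocyte markers, 4 were above the array median on all 9 arrays and 2 were below it on all 9. Summed macrophage markers were 12.14, 10.96, 12.40 and 11.38 in BMAL-/- aortae and 12.03, 11.70, 12.46, 12.08 and 13.12 in BMAL+/+ aortae, and 10 of 12 were above the array median on all 9 arrays. F03 and F08, low for Ifit3, Gbp2 and Gbp3, were also the lowest arrays in this sum. In 7 arrays 6 of 12 macrophage markers were lower in BMAL-/- at an unadjusted limma p under 0.05, with a median difference of −0.96, and in 9 arrays none was, with a median of −0.62. Markers of the vessel wall were lower at the same threshold in 7 arrays for 4 of 8 smooth muscle, 5 of 8 fibroblast and 3 of 8 endothelial genes, and 1 endothelial marker was higher (background 6.65% lower and 8.06% higher). In 9 arrays 0, 1 and 1 of these markers were lower (background 1.16%) and none was higher. The part of these cell types in the results on Ifit3, the GTPases and antigen processing was not tested.

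**Figure D5:**
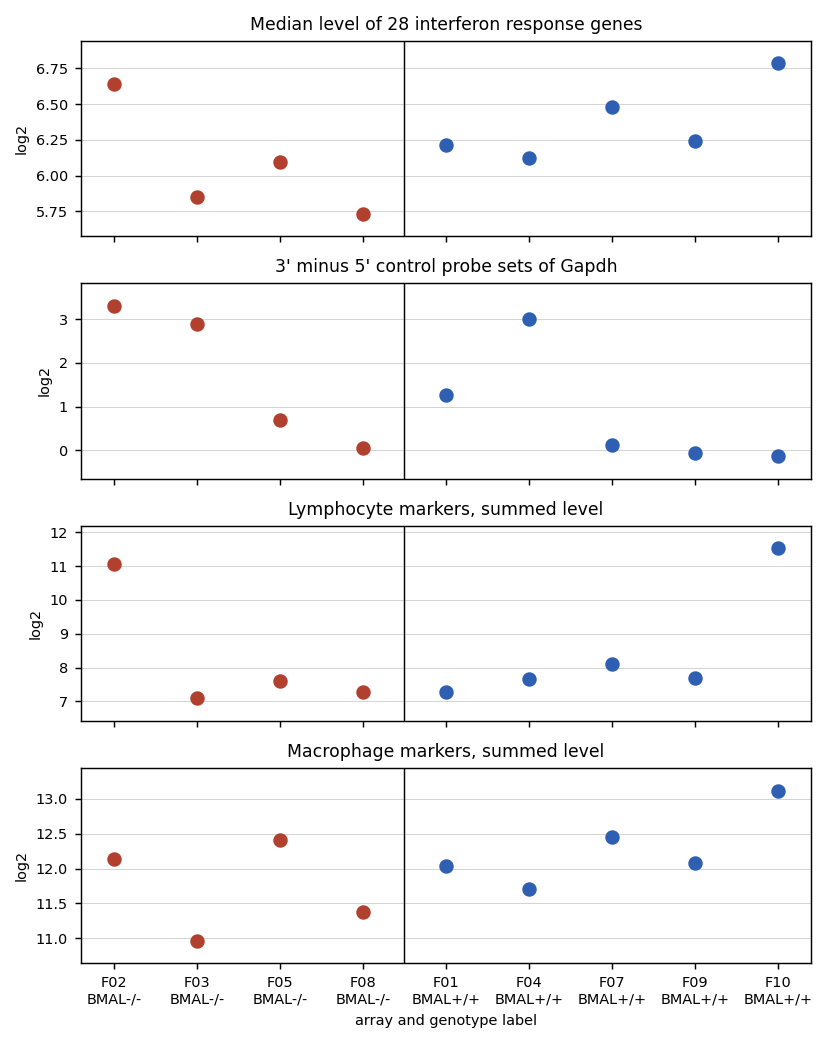
Summary values for each array (horizontal axis, BMAL-/- left of the line and BMAL+/+ right), all in log2 units. From the top, these are the median level of the 28 brighter interferon response genes, the difference between 3′ and 5′ Gapdh control probe sets, and the summed levels of lymphocyte and macrophage markers. F02 and F10 are the highest arrays in the first and the third panel.

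The remaining genes of the pathway were read from a list of their own, and none passed the adjusted test in either set of arrays. Of 20 interferon ligands, 10 were measured, and all were at or below the median brightness, with values between 2.12 and 2.85. Of the 5 brighter receptor chains, 4 were below 0 in both sets of arrays. Only Ifngr1, the ligand-binding chain for type II interferon, was lower at an unadjusted limma p under 0.05, in 7 arrays (background 6.65%). It was at 7.13, 7.19, 7.78 and 7.83 in BMAL-/- aortae, against 7.89, 7.44, 8.36, 7.99 and 8.11 in BMAL+/+ aortae. In 7 arrays its groups did not overlap, though F08 and F01 nearly touch (background 5.06% of genes above the median brightness, lower). The Ifngr1 difference was −0.71 ± 0.22 (−0.48 ± 0.23 in 9 arrays). Its lowest arrays were F02, F03 and F04, which had the largest 3′ over 5′ differences of Gapdh. Ifnar1 differed by 0.33 and 0.25, Ifnar2 by −0.04 and −0.01, Ifngr2 by −0.26 and −0.30, and Il10rb by −0.14 and −0.21, while Ifnlr1 lay near the floor.

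In each set of arrays 1 of 12 brighter signalling genes outside the members was lower at an unadjusted limma p under 0.05. The background was 1.16% of genes above the median brightness in 9 arrays and 6.65% in 7 arrays. The lower gene was Stat3, the transducer of cytokines of the interleukin-6 family, at −0.68 ± 0.28 in 9 arrays and −0.96 ± 0.28 in 7 arrays. Jak1, the kinase common to interferon receptors, differed by −0.57 and −0.81. Among 8 brighter sensing genes none was lower at this threshold. Aim2, a sensor of cytosolic DNA, passed it in 7 arrays with a difference of 0.30 ± 0.12 (background 8.06% higher). The 28 brighter genes among other interferon-inducible genes had medians of −0.15 and −0.20, close to those of the members. In 7 arrays 5 of these 28 were lower at the unadjusted threshold (background 6.65%) and none was higher (background 8.06%). In 9 arrays 1 was lower (background 1.16%). Ifitm3, which hinders viral entry, differed by −1.12 ± 0.63 and −1.78 ± 0.58, and Ifi27l2a by −1.16 ± 1.05 and −2.41 ± 0.77.

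The list of class I antigen presentation and immunoproteasome genes, read beside Psmb8, Psmb9 and Tap1, had 8 of 9 values below 0, with medians of −0.32 and −0.64. Of the 11180 genes above the median brightness, 5311 were below 0 in 9 arrays and 5118 in 7 arrays. In 7 arrays 4 of the 9 genes of this list were lower at the unadjusted threshold (background 6.65%), and in 9 arrays none was (background 1.16%). B2m, the light chain of class I, was at 12.23, 11.56, 12.28 and 12.28 in BMAL-/- aortae, against 12.18, 11.70, 13.19, 13.11 and 13.38 in BMAL+/+ aortae. F07, F09 and F10 were high and F01 lay among the BMAL-/- arrays, as it did for Psmb8, Psmb9 and Bst2. The 4 brighter class II genes were all below 0, with Cd74, the invariant chain, at −0.95 and −1.07, and none passed the unadjusted threshold. All 6 measured GTPases outside the members were bright, and 5 were below 0, with Iigp1 at −0.69 ± 0.39 and −0.94 ± 0.42 and Irgm2 at −0.41 ± 0.33 and −0.65 ± 0.30.

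Several members were read by more than 1 probe set, and these often disagreed. Of 10 members with several probe sets above the median brightness, 3 had the same sign in all of them in both sets of arrays: Ddx58, Gbp2 and Rtp4. Rsad2, Ifi35, Psmb8, Xaf1, Parp14, Trim25 and Eif2ak2 did not. Against the values given above, a dimmer probe set gave −0.18 in 9 arrays and −0.02 in 7 arrays for Rsad2, −0.17 and −0.10 for Xaf1, −0.18 and −0.18 for Eif2ak2, and −0.06 and −0.08 for Trim25, and the dimmer Parp14 probe set lay at 0 to the second decimal. Of the members named above for low values, Gbp2 was therefore read by agreeing probe sets, and Psmb8 was not.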

How the data were processed

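Aorta RNA was measured on 9 Affymetrix MOE 430 V2 arrays. The deposited table holds log2 values of 45101 probe sets. GCRMA and MAS5 are listed, with no version or role, per the submitters' processing notes, and the scale was read from the values, with array medians near 3.13 to 3.24. Dim probe sets lie at a common floor, where differences are compressed. Settings and probe builds are not given in the sources used here.

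The deposited values were used unchanged, and 64 control probe sets were left out of the test. Of 45037 probe sets, 34945 were paired with 1 gene by the platform annotation, 932 with several and 9160 with none, and 34741 matched a RefSeq gene ID. Groups followed the titles. The difference BMAL-/- minus BMAL+/+ was fitted over all probe sets with limma 3.58.1 (R 4.3.3, lmFit and eBayes with trend, two-sided, Benjamini-Hochberg), once for 9 arrays and once for 7 arrays without F04 and F05, and the script was tested on simulated data. P-values measure the spread between these arrays, whose number limits precision.

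The members, lists and tests were chosen with earlier results of these data known. Array values are printed for the 8 members with the smallest limma p in each set of arrays, the 3 brightest, and Stat2, Irf7 and Irf9, and for others named as chosen afterwards. Of pathway genes, the ligands and receptors and up to 4 per list are named. Alternatives were quantile normalisation, centring of arrays, brightness filters, array weights, probe set choice, a minimum fold of 1.5, the F-test of the design text, F01 in BMAL-/-, and arrays left out. Promoters are from RefSeq (GRCm38.p6), and matches were found on both strands, overlaps included. The cutoff for adjusted p was 0.05.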

Additional observations from a re-analysis of the deposited data

Results flagged for a closer look

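An array was set apart when its gap to the nearest array of its genotype, divided by the range of that genotype, was above the critical value of Dixon's test. For independent, normally distributed values without ties, chance gives this in about 1 in 20 groups. Here it was met in 12 of 70 groups, spread over 11 genes, and 5 of the 12 lie near the floor. The groups share the same arrays, and several members hold exactly equal deposited values, such as Mx1 in F03 and F08 (3.08214). The 1 in 20 is therefore no measure of chance for these groups.

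F02 was the highest BMAL-/- array for Mx1 at 4.61, against 3.04 to 3.08 in the other BMAL-/- arrays. It was also highest for Usp18 at 3.65 (others 2.69 to 2.84) and for Irf7 at 2.81 (others 2.50 to 2.52). F10 was the highest BMAL+/+ array for Tap1 at 6.73, where the others lay between 5.04 and 5.06. F04 was the highest BMAL+/+ array for Cmpk2 at 7.22 (others 5.86 to 6.21) and for Oas2 at 4.33 (others 4.09 to 4.15).

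F03 was the lowest BMAL-/- array for Bst2 at 2.12. The other BMAL-/- arrays held exactly the same deposited value, 4.22785, so the ratio was 1 whatever the gap. The source of such equal values was not tested. F05 was the highest BMAL-/- array for Ddx58 at 4.62 (others 4.44 to 4.46), and F08 the lowest for Ifit1 at 2.29 (others 2.54 to 2.55). Among BMAL+/+ arrays, F09 was lowest for Ifi35 at 9.75 (others 10.40 to 10.65), F07 highest for Irf7 at 2.67 (others 2.49 to 2.52), and F01 lowest for Oasl1 at 2.82 (others 3.02 to 3.07).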

How the results depend on the processing

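Ifit3, Gbp2, Gbp3, Ifit2, Oasl2 and Parp9 stayed below 0 in the alternatives that gave them a value. Gbp3 and Oasl2 have none without _s_at, _x_at and _a_at probe sets, and Oasl2 has none above the upper quartile of brightness. Ifit2 ran between −0.88 and −0.25 in 9 arrays and between −1.29 and −0.36 in 7 arrays, Gbp3 between −0.89 and −0.36 and between −1.30 and −0.54 (−0.36 in 9 arrays without F08), Oasl2 between −0.97 and −0.61 and between −1.26 and −0.54, Gbp2 between −0.92 and −0.38 and between −1.37 and −0.62, and Parp9 between −0.55 and −0.33 and between −0.59 and −0.36. For Ifit3 the difference ran between −1.49 and −0.86 in 9 arrays and between −2.10 and −1.65 in 7 arrays, with adjusted p between 0.177 and 0.822 and between 0.00999 and 0.568. Adjusted p in 7 arrays was under 0.05 with array weights for Ifit3 (0.0208), Gbp2 (0.0337) and Dhx58 (0.0333), a setting that called 15448 probe sets, and without F08 for Ifit3 (0.00999), Oas3 (0.032) and Dhx58 (0.0387), with 16445 called. Oas3 turned sign under quantile normalisation (−0.0061 in 9 arrays and −0.0092 in 7) and centring (−0.022 and −0.033). The median over members ran between −0.13 and 0.04 with 1 array left out of 9, and between −0.23 and 0.04 with 1 left out of 7.

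The count of members at an unadjusted limma p under 0.05 in 9 arrays, 2 in the main setting, was 13 with array weights (10 lower, 3 higher) and 1 with the upper quartile of brightness, without _s_at, _x_at and _a_at probe sets, with the F-test of the design text, with a minimum fold of 1.5, and without F02 and F10. Leaving out 1 array gave 0 to 7, with 5 without F02, 4 without F08, 7 without F04, 1 without F07, and 0 without F03 or F09. In 7 arrays the count was 6 and became 3 with quantile normalisation, 11 with array weights (5 lower, 6 higher) and 3 without _s_at, _x_at and _a_at probe sets. Leaving out 1 array gave 1 to 10, with 1 without F03, 3 without F07 and 10 without F08. The share of all genes at this threshold is not given for the alternatives, so the member counts in them are not results on the members. Probe sets called in 9 arrays numbered 0, against 2 without F02, F03 and F04, and 0 to 0 with 1 array left out. In 7 arrays they numbered 4, against 2 with quantile normalisation, 8 with the upper quartile, 2 with F01 in BMAL-/-, 2 without F02 and F10, and 296 without F02, F03 and F04, and 2 to 16445 with 1 array left out (2 without F01, F07 or F10). The cause of these shifts was not tested. Both settings that leave out F02 with F10 or with F03 and F04 were added after seeing the data. No paired analysis was possible because the groups share no replicate numbers. Signal over background limits the 7 members near the floor, where differences are compressed.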
